A study of Mus musculus with 3 samples.

Results

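Sites antisense to introns are poly(A) sites, the positions where an RNA was cut and given its poly(A) tail, that the deposited lists place inside an intron of a gene read from the opposite strand. They were chosen by the deposited region code AI on chromosomes 1 to 19. There were 20165 such sites among 171741 autosomal sites and 178115 sites in all. They come from 3 libraries of F121-9 cells, mouse embryonic stem (ES) cells whose parents were of the Cast and 129 strains, at passage 14, each made from 500 ng of RNA with a QuantSeq 3′ end protocol. All libraries belong to 1 group with no treatment or control named, so sites were compared with other classes of sites in the same cells. The labels name no separate cultures for the replicates, so the spread between them may be partly technical and the tests measure only that spread. In such bulk samples fewer cells of a type and less RNA per cell cannot be told apart.

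An RNA made from the strand opposite to a gene shares no exons with it, and it needs its own end. Cleavage and polyadenylation of messenger RNA is directed by a hexamer, most often AATAAA and next most often ATTAAA, which the CPSF complex binds a short way upstream of the cut, and by U- or GU-rich sequence downstream that CstF binds. Introns of mouse genes are rich in SINE elements, short repeats such as B1 and B2 that were copied from small RNAs made by RNA polymerase III, and the 3′ part of B2 carries AATAAA hexamers of its own. Because the libraries are primed with oligo(dT), a stretch of A inside an RNA can also be primed and read as if it were an end.

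Reads at autosomal sites numbered 9326090, 12500338 and 13040404 in replicates 1, 2 and 3. Replicate 3 had no reads on X, Y or the mitochondrial genome, which is why the autosomes were used. Autosomal reads were 84.1%, 84.1% and 92.7% of the reads behind the RPM values of replicates 1, 2 and 3, so an equal share of autosomal reads gives a higher RPM in replicate 3. The ES cell identity of the libraries was checked with 8 marker genes, which averaged between 78.3 and 723 RPM (reads scaled to the library's total). Of 8 markers of fibroblast feeders, 3 were at 0 in all libraries and Thy1 alone passed 10 RPM; the list summed to 81.4, 50.8 and 133 RPM in replicates 1, 2 and 3, and its part in the results was not tested.

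The label held for most of the sites but not for all of them. In the GENCODE M21 annotation, 19744 sites (97.9%) lay in an intron of an opposite-strand gene with no gene on their own strand. A further 196 lay in an exon of an opposite-strand gene, and 1 lay in an intron on its own strand. The remaining 224 sites (1.11%) lay in an exon of a gene on their own strand, so they are not antisense to that gene. All 224 were on the minus strand and in the first exon of their gene, at a median of 159 bases from its start, and 211 of them had no gene on the opposite strand at all. On the minus strand, 211 of 1443 sites in such first exons carried the code AI and 22 the code EX, used for other exons. On the plus strand, 0 of 1551 carried AI and 277 carried EX. The 224 sites held 3.25% of the reads of the class, and 8.48% of them had AATAAA or ATTAAA upstream. Results below use all 20165 sites, except those on overlapped genes. The class comparisons with a test were repeated on the 19744 and kept their direction.

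The sequences of the highest sites show the kinds of 3′ end in this class. Each line gives the 60 bases up to and including the site and the 30 bases after it in mm10, on the strand of the site, and names the gene at the site. Capitals mark AATAAA or ATTAAA within 40 bases upstream or, where there is none, the longest run of 6 or more A in the 30 bases downstream.
Mcm7, chr5:138171702-138171791, minus strand: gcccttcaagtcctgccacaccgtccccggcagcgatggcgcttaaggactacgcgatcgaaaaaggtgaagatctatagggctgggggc
Dse, chr10:34186421-34186510, plus strand: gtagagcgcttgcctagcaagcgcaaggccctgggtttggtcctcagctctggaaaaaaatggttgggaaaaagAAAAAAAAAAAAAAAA
Gm26573, chr4:146930508-146930597, plus strand: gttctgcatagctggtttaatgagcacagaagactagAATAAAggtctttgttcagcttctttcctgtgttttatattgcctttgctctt
Fto, chr8:91411422-91411511, minus strand: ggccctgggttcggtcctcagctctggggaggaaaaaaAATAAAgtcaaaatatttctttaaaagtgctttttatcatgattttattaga
9430091E24Rik, chr8:111139709-111139798, plus strand: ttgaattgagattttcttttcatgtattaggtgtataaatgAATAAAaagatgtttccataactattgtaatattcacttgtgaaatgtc
Slc9a8, chr2:167439382-167439471, minus strand: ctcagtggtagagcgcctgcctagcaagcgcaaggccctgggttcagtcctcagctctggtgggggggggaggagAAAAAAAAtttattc

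The site with the most reads of the class was one of the mislabelled ones. It had 103, 92.0 and 103 RPM in replicates 1, 2 and 3 and lay at chr5:138171732, in the first exon of Mcm7, which encodes a subunit of the replicative helicase and is read from the same strand. It had none of 18 hexamers in the 40 bases upstream. The highest site that matched the code lay at chr10:34186480 in intron 2 of 8 of Dse, a gene for dermatan sulfate epimerase, with 79.3, 55.1 and 109 RPM. It also had no hexamer, and a long run of A follows it. Its last 50 bases occur 4 times in the autosomes, so its reads may belong to another copy.

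At the next sites an AATAAA was present. The site antisense to the lincRNA Gm26573 (chr4:146930567, intron 2 of 3) had 41.9, 55 and 62.1 RPM. The site in intron 6 of 12 of Fto, which encodes an RNA demethylase, had 34.1, 20.1 and 59.2 RPM at chr8:91411452. The site in 9430091E24Rik (chr8:111139768) had 30.1, 40.3 and 42.7 RPM and lay 2694 bases past the annotated end of Pdpr, a gene on its own strand that encodes a regulator of pyruvate dehydrogenase phosphatase. The libraries ranged over a factor of about 3 at the Fto site and less at the other sites named so far. The remaining sites among the 12 highest averaged between 19.3 and 35 RPM, and they were in Slc9a8, Echdc2, Gm26533, Ppm1e, AC141471.2, Scamp5 and 2610020C07Rik. In Slc9a8, a sodium and proton exchanger gene, the site had 31.1, 23.2 and 50.6 RPM and no hexamer. In Ppm1e, a protein phosphatase gene, the site had 17.0, 23.3 and 33.9 RPM with an AATAAA, 30187 bases past the end of Trim37 on its own strand. In Scamp5, which encodes a secretory carrier membrane protein, it had 19.4, 18.8 and 30.7 RPM, also with an AATAAA. Replicate 3 was the highest library at 10 of the 12 sites and replicate 1 at the other two, in Mcm7 and Echdc2. As a share of autosomal reads, replicate 3 was highest at 9 of the 12.

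**Figure D1:**
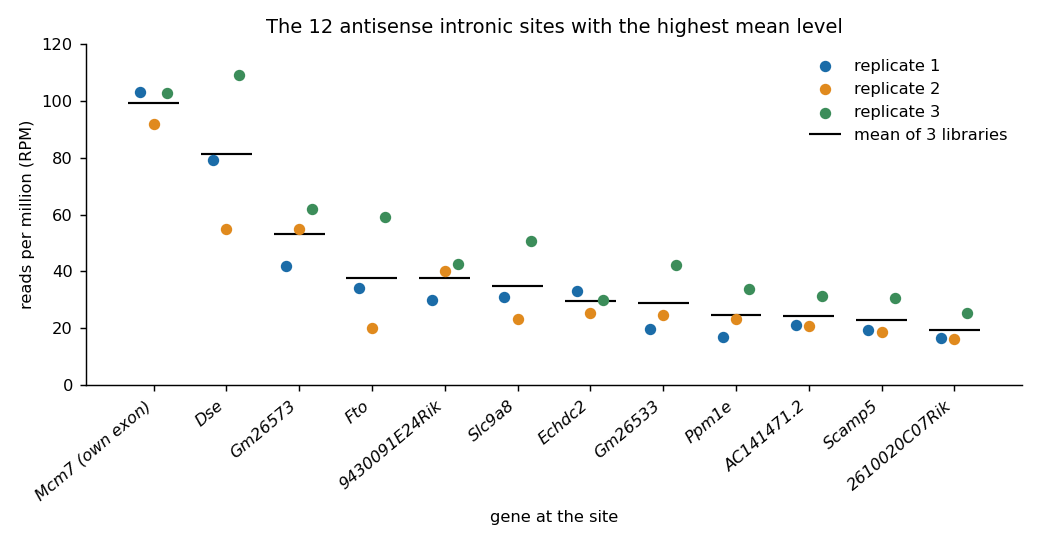
Level in RPM (vertical axis) of the 12 antisense intronic sites with the highest mean, by the gene at the site, with a point for each library and a bar for the mean of 3 libraries. The Mcm7 site, in an exon on its own strand, and the Dse site stand above the rest, and the Dse points spread from 55.1 to 109 RPM.

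Dse, Fto and Slc9a8 share more than their place in an intron. The longest run of bases common to the 100 bases upstream of all 3 sites was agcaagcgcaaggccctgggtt, 22 bases that also occur in Bc1, a small brain RNA whose 5′ part resembles the ID family of SINEs. This run, chosen after the sequences were seen, was present at 21 antisense intronic sites, of which 14 had reads in every library. These 21 sites held 3.44%, 2.32% and 4.22% of antisense intronic reads in replicates 1, 2 and 3. They include the 3 sites from which the run was taken, all among the 12 highest, so the choice itself raises this share. At intronic sites the run was present at 25, which held 0.144%, 0.107% and 0.246% of intronic reads. At intergenic sites it was present at 30, which held 3.05%, 2.40% and 4.04% of intergenic reads, about as much as in the antisense intronic class. The highest of the 30 averaged 414 RPM. Of the 21 antisense intronic sites, 4.76% had AATAAA or ATTAAA upstream and 47.6% were A-rich downstream, meaning that the next 20 bases held 12 or more A, or 6 A in a row.

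The class as a whole took a small share of the reads. Antisense intronic sites were 11.7% of autosomal sites and held 0.591%, 0.617% and 0.673% of autosomal reads in replicates 1, 2 and 3 (mean 0.627 ± 0.042%, SD, n = 3). Intronic sites on the gene's own strand were 21.9% of sites and held 1.56 ± 0.08% of reads, and intergenic sites were 23.2% of sites and held 1.65 ± 0.08%. Terminal exon sites held 93.7 ± 0.3%. The 10 highest antisense intronic sites held 8.26% of the mean RPM of the class, so the signal was spread over many sites. A mean of 1 RPM or more was reached at 868 sites and a mean of 10 RPM or more at 48, while 8753 sites (43.4%) rested on a single read over all 3 libraries.

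Most sites of the class were seen in 1 library. Reads were present in 1 library at 16698 sites (82.8%), in 2 libraries at 2223 (11%) and in every library at 1244, which is 6.17% (95% Wilson interval 5.85 to 6.51%). That interval treats sites as independent draws and does not measure the spread between libraries. Over all autosomal sites 18.6% had reads in every library. The share was 6.89% for antisense exonic, 5.75% for intronic and 6.80% for intergenic sites, against 40.6% for terminal exon sites. After thinning all libraries to 9326090 reads it was 6.24% for antisense intronic, 5.75% for intronic and 6.89% for intergenic sites. The 1244 shared sites held 50.2% of the reads of the class. Across the 19 autosomes the share read in every library ranged between 4.23% on chromosome 3 and 7.87% on chromosome 16.

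The libraries differed widely in the level of single sites. At sites with a mean of 10 to 100 reads, the median coefficient of variation between libraries was 93.9% for 1250 antisense intronic sites. It was 96.9% for intronic, 90.4% for intergenic and 70.0% for terminal exon sites. Over 1314 sites with at least 30 reads in all, the Pearson correlation of log2(RPM + 1) was 0.58 between replicates 1 and 2, 0.29 between replicates 1 and 3 and 0.34 between replicates 2 and 3. Spearman coefficients of the reads were 0.44, 0.04 and 0.08 for the same pairs in the same order. With the same filter, Pearson coefficients were 0.61, 0.25 and 0.39 at intronic and 0.66, 0.42 and 0.48 at intergenic sites. These coefficients are across sites of the same libraries and describe them only.

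Poly(A) signals were enriched upstream of antisense intronic sites. AATAAA or ATTAAA stood in the 40 bases upstream of 33.5%, 39.9% and 32.6% of the sites with reads in replicates 1, 2 and 3. In a control window of the same length, which begins 100 bases past the site, they stood at 6.78%, 6.64% and 6.96%. The difference was 28.5 ± 4.1 percentage points (SD, n = 3) and was in the same direction in 3 of 3 libraries. An exact two-sided sign-flip test on 3 values cannot give a p below 0.25, which was also its value here and in each of the 6 other class comparisons (0.25 after Benjamini-Hochberg adjustment over 7 tests). Counted once over the whole list, AATAAA stood upstream of 26.7% of antisense intronic sites, against 4.06% in the control window, and ATTAAA upstream of 6.63%, against 2.77%. The first base of the hexamer lay at a median of 21 bases upstream of the site, with quartiles at 27 and 16.

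Other hexamers added little. AATAAT was 3.12 times and CATAAA 2.01 times as frequent upstream as in the control window. ATTATA and ATTACA were less frequent upstream, at 0.68 and 0.75 times. None of the 18 hexamers was present upstream of 48.5 ± 4.0% of sites per library.

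The signal went with detection. AATAAA or ATTAAA stood upstream of 27.9% of sites read in 1 library, 48.9% of those read in 2 and 55% of those read in every library. The share in the control window was 6.31%, 7.11% and 8.52% for the same groups. By reads over all libraries, the upstream share was 19.8% at sites with 1 read, 33.5% at sites with 2 to 9 reads, 51.9% at sites with 10 to 99 reads and 71.5% at the 267 sites with 100 reads or more. Weighted by reads, 56.2 ± 4.8% of antisense intronic reads per library lay at a site with either hexamer.

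Compared with other classes, antisense intronic sites were near the middle. Counted once over the list, 6427 antisense intronic sites (31.9%) had AATAAA or ATTAAA upstream, against 32.6% of all autosomal sites. Per library the share was 35.3 ± 4.0% for antisense intronic and 30.9 ± 3.0% for intronic sites, and the difference of 4.45 ± 1.13 points was positive in 3 of 3 libraries. It was 1.64 points without A-rich sites, 1.92 points by share of reads, and 0.68 points, positive in 2 of 3 libraries, without the 8 repeat strings described below. It turned round, to 26.4 ± 3.2% for antisense intronic and 31.8 ± 3.2% for intronic sites, once repeat-masked sites were left out, with 0 of 3 libraries higher. Antisense exonic sites had 30.3 ± 5.1%, a difference of 5.0 ± 2.8 points, higher at antisense intronic sites in 3 of 3 libraries, and of 1.31 points in 2 of 3 libraries without the 8 strings. By share of reads this too turned round, with 56.2 ± 4.8% for antisense intronic and 77.1 ± 1.5% for antisense exonic reads. The highest antisense exonic site alone held 48.5% of the mean RPM of its class. Intergenic sites had 37.2 ± 2.9%, and antisense intronic sites were lower in 3 of 3 libraries, by a difference of -1.86 ± 1.21 points, and under the 11 alternatives tried. The alternatives that leave out 1 library could not change a direction shared by all 3.

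**Figure D2:**
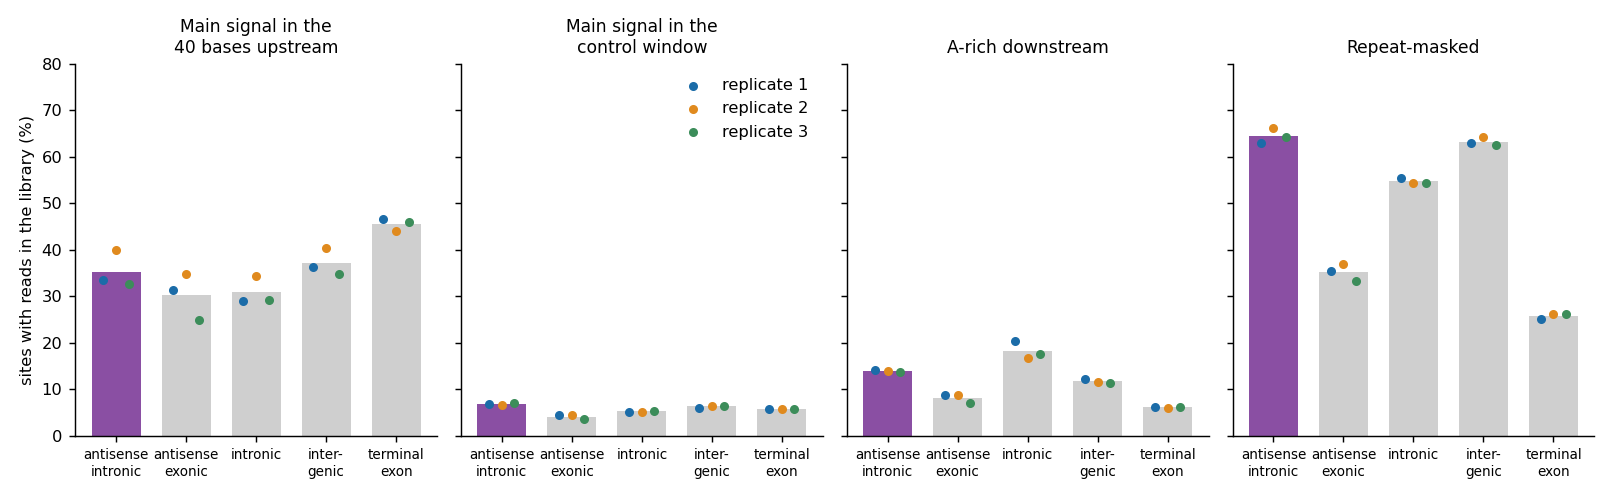
Share of sites with reads in a library (vertical axis, %) that have AATAAA or ATTAAA upstream, have it in the control window, are A-rich downstream or are repeat-masked, for 5 classes of sites. Bars are means of 3 libraries and points are libraries; antisense intronic sites lie at 35.3%, 6.79%, 13.9% and 64.4%.

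Base composition resembled that of terminal exon sites 15 to 24 bases upstream and differed closer to the site and downstream. At antisense intronic sites read in every library, A made up 44.2% of bases 15 to 24 upstream, close to the 45.0% at terminal exon sites read in every library. At antisense intronic sites read in 1 library it was 38.8%. At 7 bases upstream A made up 42.0% at antisense intronic and 23.0% at terminal exon sites read in every library. In bases 11 to 30 downstream, T made up 28.4% at antisense intronic sites read in every library and 39.4% at terminal exon sites, while A made up 34.8% at antisense intronic and 24.0% at terminal exon sites.

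**Figure D3:**
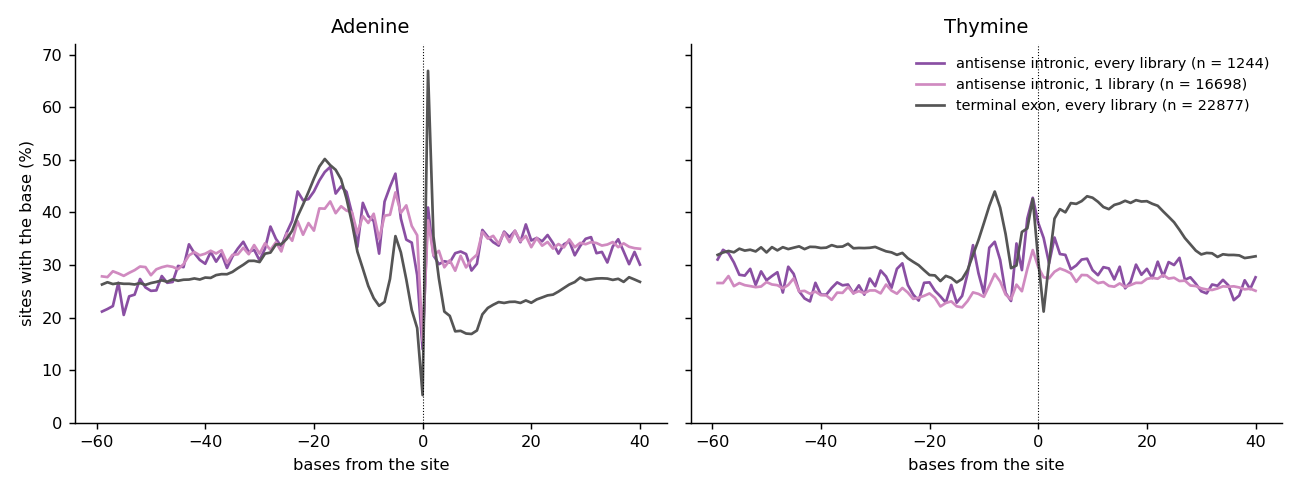
Share of sites (vertical axis, %) with adenine (left) or thymine (right) at each distance in bases from the site (horizontal axis, 0 is the site), for antisense intronic sites read in every library and in 1 library and for terminal exon sites read in every library. All lines show a rise of adenine about 20 bases upstream, and the rise of thymine downstream at terminal exon sites is much weaker at antisense intronic sites.

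A-rich sequence downstream was less common at antisense intronic than at intronic sites. It followed 14.2%, 14% and 13.6% of antisense intronic sites in replicates 1, 2 and 3, against 20.5%, 16.7% and 17.6% of intronic sites, and the difference of -4.31 ± 1.82 points was negative in 3 of 3 libraries. Antisense intronic sites exceeded intergenic sites by 2.21 ± 0.21 points, also in 3 of 3 libraries, but by 0.345 points in 2 of 3 libraries without the 8 repeat strings described below. Counted once over the list, 13.3% of antisense intronic and 11.9% of all autosomal sites were A-rich. Among sites read in every library the share was 17.4% for antisense intronic and 17.5% for intronic sites. A-rich antisense intronic sites carried AATAAA or ATTAAA at 30.7%, and the others at 32.0%. Whether A-rich sites come from internal priming was not tested.

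Repeats made up most of the class. Of antisense intronic sites with reads, 63.0%, 66.1% and 64.2% lay on a base masked as a repeat in replicates 1, 2 and 3, against 55.5%, 54.3% and 54.3% of intronic sites. The difference was 9.74 ± 2.15 points, positive in 3 of 3 libraries, but it was 3.84 points without the 8 repeat strings described below. Intergenic sites were masked at 63.2 ± 0.9% per library, close to the 64.4 ± 1.5% of antisense intronic sites. Counted once over the list, 63.2% of antisense intronic and 45.5% of all autosomal sites were masked. Masked antisense intronic sites had AATAAA or ATTAAA at 36.6% and unmasked ones at 23.7%.

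To see which repeats these were, the most frequent 20-base strings in the last 60 bases of all autosomal sites were taken one after another. Each string's sites, with up to 2 mismatches, were set aside before the next was chosen. A site that holds several strings is therefore counted only under the one with the lowest number. The 8 strings found are shown because they account for 24.9% of antisense intronic sites, against 12% of intronic and 18.4% of intergenic sites. Capitals mark AATAAA.
String 1: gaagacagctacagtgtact
String 2: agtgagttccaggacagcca
String 3: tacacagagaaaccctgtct
String 4: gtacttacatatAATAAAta
String 5: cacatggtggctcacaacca
String 6: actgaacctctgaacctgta
String 7: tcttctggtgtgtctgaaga
String 8: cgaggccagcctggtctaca

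Strings 1 and 4 are parts of the 3′ end of B2, and strings 2 and 3 are parts of B1. String 1 was present at 1910 antisense intronic sites and was the most common. Per library it stood at 11.3 ± 1.7% of antisense intronic sites, 4.90 ± 0.61% of intronic and 8.76 ± 1.02% of intergenic sites, and at 0.179 ± 0.019% of terminal exon sites. It held 15.3 ± 3.1% of antisense intronic reads, against 5.20 ± 1.54% of intronic reads. Of its 1910 sites 89.3% had AATAAA or ATTAAA upstream, 29.6% were A-rich and 13.6% had reads in every library. String 4 was counted at 416 sites, and 15.4% of them were read in every library. Of these sites 97.1% carried either hexamer, which their choice largely fixes, since string 4 itself holds AATAAA. Sites that hold both strings 1 and 4 are counted under string 1. Exact copies of string 4 antisense to an intron with a listed site numbered 701. String 2, from B1, was present at 1364 antisense intronic sites, or 6.70 ± 0.73% per library, against 3.61 ± 0.26% of intronic sites. Its sites had AATAAA or ATTAAA at 0.147%, were A-rich at 49.3% and had reads in every library at 4.55%. Strings 3, 5, 6, 7 and 8 were rarer when each site is counted under 1 string only. Their means over the 3 libraries lay between 0.619% and 2.13% of antisense intronic sites.

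The highest sites with strings 1 and 2 and a high site with string 4 show how the elements meet the site. In Ttc39d and Pde4c the capitals mark the AATAAA in the B2 tail, and the Gm28539 sequence has neither hexamer.
Ttc39d, chr17:80213960-80214049, minus strand: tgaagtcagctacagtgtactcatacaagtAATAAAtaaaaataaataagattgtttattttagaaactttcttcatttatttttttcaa
Pde4c, chr8:70736681-70736770, minus strand: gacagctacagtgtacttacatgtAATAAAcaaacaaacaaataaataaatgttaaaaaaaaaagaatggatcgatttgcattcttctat
Gm28539, chr16:18870917-18871006, minus strand: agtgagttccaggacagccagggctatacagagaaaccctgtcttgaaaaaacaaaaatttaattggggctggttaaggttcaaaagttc
The Ttc39d site had 10.6, 22.8 and 17.8 RPM in replicates 1, 2 and 3. The Pde4c site, in a gene for a cyclic AMP phosphodiesterase, had 14, 17.0 and 12.5 RPM. The Gm28539 site had 22.6, 14.1 and 13.6 RPM and lay 1071 bases past the end of Mrpl40, a mitochondrial ribosomal protein gene on its own strand.

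The strings also differed in number between places in the genome. Exact copies of string 1 antisense to an intron numbered 7986, against 5709 copies in an intron and 10676 outside genes. With each strand counted separately, these places cover 1002, 1090 and 2601 Mb. Per Mb, copies of string 1 were thus densest antisense to an intron and sparsest outside genes. A listed site lay within 40 bases past 12.1% of the antisense intronic copies, 13.1% of the intronic copies and 13.9% of those outside genes. For string 4 the shares were 15.8%, 17.0% and 17.5%, and for string 2 they were 3.95%, 4.40% and 3.55%. These are counts over the genome with no replicate, and they were not tested. Without the sites that hold any of the 8 strings, AATAAA or ATTAAA stood upstream of 29.1 ± 3.4% of antisense intronic and 28.5 ± 2.8% of intronic sites per library.

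**Figure D4:**
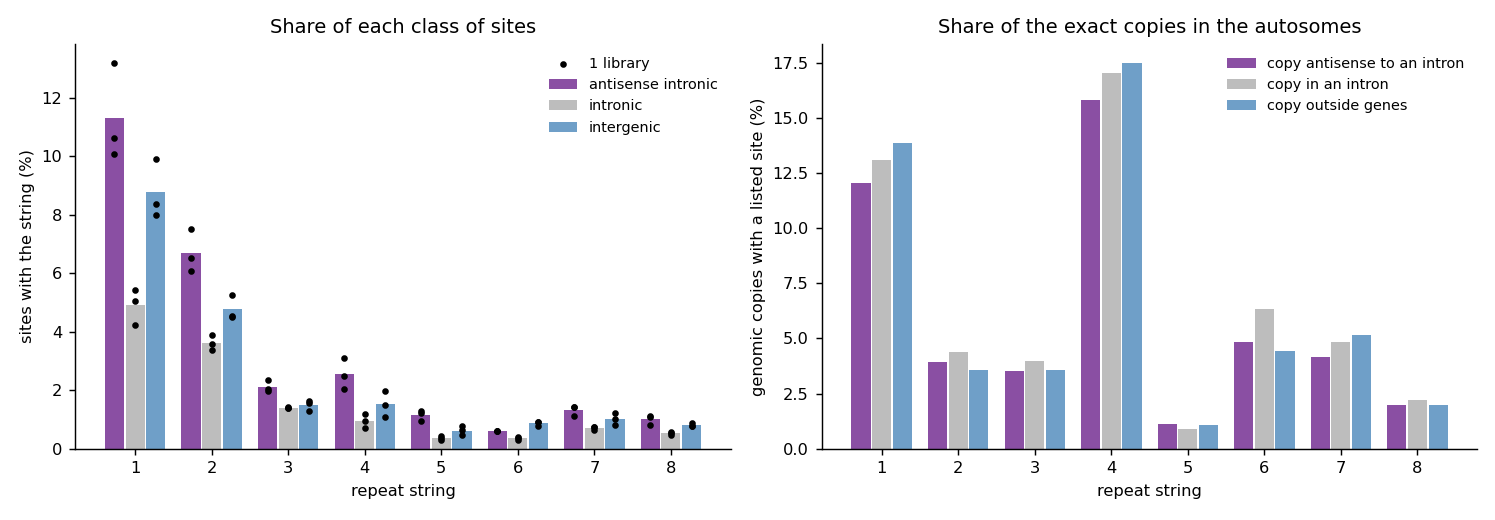
Left, share of sites with each repeat string (vertical axis, %) at antisense intronic, intronic and intergenic sites, with bars for the mean of 3 libraries and points for libraries. A site with several strings is counted only under the one with the lowest number. Right, share of the exact genomic copies of each string (vertical axis, %) that have a listed site, by the place of the copy; string 1 lies at 12.1%, 13.1% and 13.9%.

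Some sites may draw reads from other copies. The last 50 bases up to the site occurred more than once in the autosomes at 14.4% of antisense intronic sites, which held 16.6% of the reads of the class. The share was 7.45% for intronic and 13.4% for intergenic sites. How reads with several places were treated is not given in the sources used here. Among sites whose last 50 bases occur once, the upstream signal stood at 34.3 ± 3.9% of antisense intronic and 30.4 ± 3.0% of intronic sites.

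Part of the class lay 1000 to 5000 bases past the end of a gene on its own strand. Within 5000 bases past such an end were 1559 antisense intronic sites (7.73%), which held 16.9%, 15.4% and 13.7% of the reads of the class in replicates 1, 2 and 3. None of the 1559 lay in the first 1000 bases, so for this class the window is empty nearest the gene end. The same window held 13.7% of intergenic sites and 34.5 ± 0.8% of intergenic reads. AATAAA or ATTAAA stood upstream of 41.7% of these antisense intronic sites and of 31.1% of those farther away, and 9.94% against 5.85% had reads in every library. Of the 12 highest sites, those in Gm26533, 9430091E24Rik and 2610020C07Rik lay 1330, 2694 and 2705 bases past the ends of Ammecr1l, Pdpr and Gspt1. Gspt1 encodes the translation termination factor eRF3A. Unannotated extension of those genes and separate RNAs were not told apart.

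The overlapped genes were numerous and long. The 19744 sites with an opposite-strand intron fell in 8755 genes, 88.1% of the sites in protein-coding ones, with a median gene length of 83692 bases and a median intron length of 12109 bases. A single site was present in 4431 genes and 10 or more in 134. Sites spread along the gene, with 21.8% in the first 20% of its length and 17.2% in the last 20%. Within 1000 bases of the start of the overlapped gene lay 386 sites, of which 24.1% had AATAAA or ATTAAA upstream.

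The most sites read in every library lay in Gm20388, Cntnap2, Tex14, Fgfr2, Gm26573 and Tmem132d, the last of these ahead of Gm48228, Rsph1 and Gsta4 by its number of sites only. Gm20388, a gene model with 4.43 Mb of intron, had 100 sites and 11 read in every library, at 22.6 sites per Mb of intron. Cntnap2, a neuronal cell adhesion gene, had 31 sites at 13.9 per Mb, which summed to 28.2, 29.5 and 40.7 RPM, against 6.95, 10.3 and 7.04 RPM for the exonic and downstream sites of Cntnap2 itself. Tex14, a gene of germ cell bridges, had 17 sites at 117 per Mb, summing to 21.9, 16.8 and 22.5 RPM, against 16.1, 13.5 and 15 RPM for the gene. Fgfr2, a fibroblast growth factor receptor gene annotated with 2.95 Mb of intron, had 35 sites at 11.9 per Mb. They summed to 12.3, 9.56 and 10.2 RPM, against 0, 0.404 and 0 RPM for the gene. In Cntnap2, Tex14 and Fgfr2 the antisense sum was above the gene in every library. Such a sum grows with the length of intron it covers, so it is not a like measure to the gene level.

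Sites were denser in genes with higher levels. Over protein-coding genes, antisense intronic sites numbered 11.7 per Mb of intron in genes listed at 0 RPM, 14.2 in genes above 0 and below 1 RPM, 18 at 1 to 10 RPM, 25.4 at 10 to 100 RPM and 35 at 100 RPM or more. Intronic sites numbered 13.6, 18.1, 31.2, 60.9 and 99.8 per Mb in the same genes. In genes of 100 RPM or more, a library had 11.9, 18.4 and 13.6 antisense intronic sites per Mb, against 42.6, 48.4 and 37.0 intronic sites per Mb, in replicates 1, 2 and 3. In genes at 0 RPM it had 3.93, 5.51 and 4.73 antisense intronic sites per Mb, against 4.62, 6.41 and 5.36 intronic sites. The order over the 5 levels was the same in each library. Without the sites within 5000 bases past a gene end, the antisense intronic density was 11 per Mb in genes at 0 and 31.9 per Mb in genes of 100 RPM or more. Gene levels differ in intron length as well, with a median of 7.61 kb of intron in genes at 0 and 13.2 kb in genes of 100 RPM or more, and the part of gene length or density was not tested.

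**Figure D5:**
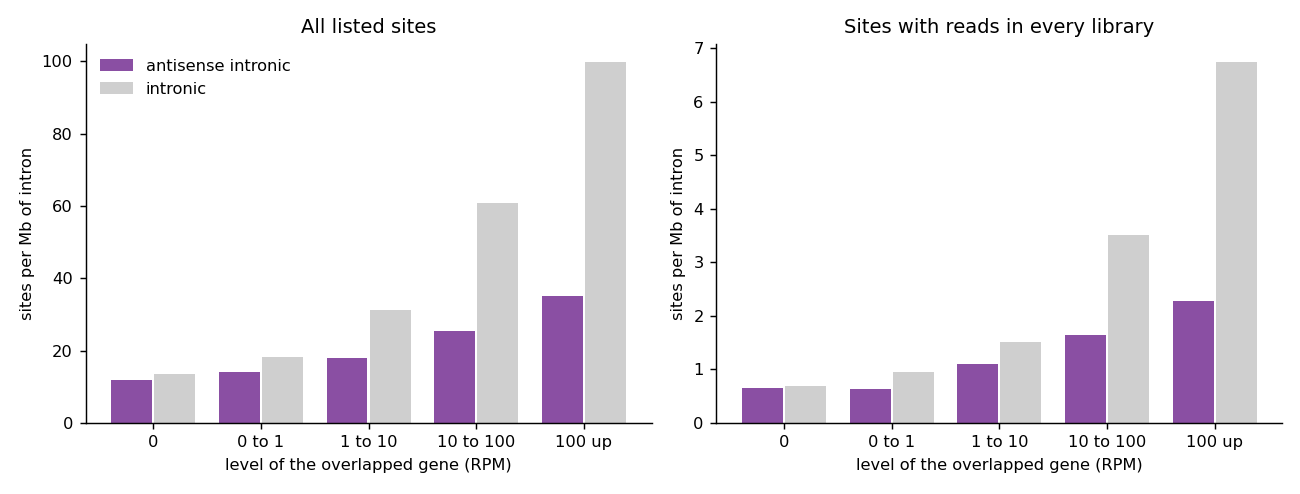
Antisense intronic and intronic sites per Mb of intron (vertical axis) in protein-coding genes by the level of the overlapped gene in RPM (horizontal axis), for all listed sites (left) and sites with reads in every library (right). Antisense intronic density runs between 11.7 and 35 per Mb on the left, below the intronic density at each level.

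Lists of genes fitting ES cells were looked up as overlapped genes. Of 13 core pluripotency genes 5 had antisense intronic sites, 9 in all, of which 2 were read in every library. Over all protein-coding genes 37.6% had such a site. Of 17 naive pluripotency genes 7 had 24 sites, 1 of them read in every library. Of 13 formative and primed genes 7 had 16 sites, of 23 imprinted loci 19 had 56 sites, and of 19 matched cleavage and polyadenylation factor genes 10 had 17 sites. All 32 very long genes had sites, 429 in all, of which 22 were read in every library. Per Mb of intron the density was 91.5 for core pluripotency, 42.1 for naive, 25.2 for formative and primed, 25.4 for imprinted, 33.2 for the cleavage factors and 9.67 for very long genes, against 18.7 for all protein-coding genes. Intronic sites numbered 183, 93.0, 37.8, 31.7, 133 and 10.8 per Mb in the same order of lists, against 35.9 for all protein-coding genes. The antisense intronic value for core pluripotency rests on 9 sites, and nothing particular to a list was tested.

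Esrrb, a nuclear receptor of the naive state, had the highest site in those lists outside the very long genes, at 1.71, 4.58 and 5.83 RPM with an ATTAAA (chr12:86425067, intron 2 of 9). In Nanog a site with string 1 had 0.180, 0.0673 and 1.49 RPM, and 98.6% of its upstream 31-base stretches also occur in annotated transcripts. In Copg2, next to the imprinted Mest, a site had 0, 4.51 and 4.55 RPM. In Trappc9 a site with AATAAA had 2.89, 0.0673 and 2.99 RPM, and in Snrpn one had 0.361, 1.21 and 1.56 RPM. Replicates thus disagreed by large factors at most of these low sites. In Cntnap2, by contrast, 2 sites in intron 23 of 27 had 12.8, 6.80 and 12.6 RPM and 6.22, 11.1 and 13.7 RPM, the last 50 bases of the second occurring 3 times in the autosomes. In Ptprt, a receptor phosphatase gene, a site 2669 bases past the end of the antisense gene Ptprtos had 6.59, 7.14 and 7.54 RPM. Among the cleavage factors the highest sites were in Wdr33, which encodes the CPSF subunit that contacts AATAAA, at 2.62, 3.23 and 0 RPM, and in Fip1l1, another CPSF subunit gene, at 0.180, 1.35 and 2.77 RPM.

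Each site was then set against the gene it overlaps, taken as the RPM summed over exonic and downstream sites on the gene's strand. Of 2032 antisense intronic sites with a mean of at least 0.5 RPM and 1 overlapped gene, 201 (9.89%) were at least 2-fold higher than the gene and 965 (47.5%) at least 2-fold lower. The test was limma on log2 ratios with 0.05 RPM added, at a Benjamini-Hochberg adjusted p under 0.05 over 7137 sites. The filter is on the level of the site, so a site over a silent gene enters only where the site is high, and 408 of the 2032 overlap a gene at 0. With no filter 362 of 19323 antisense intronic sites were called higher and 12175 lower, so the shares rest on the filter. Among all 7137 filtered sites, which include intronic and antisense exonic ones, 6.5% were called higher and 58.4% lower. The median log2 ratio of site over gene was -3.25 for antisense intronic, -3.17 for antisense exonic and -5.04 for intronic sites. The median level of the site was 0.872, 0.920 and 0.825 RPM in these classes and that of the gene 6.18, 6.98 and 15.4 RPM. Of the 201 called higher, 175 overlapped a gene with no read in any library. The edgeR quasi-likelihood test on whole reads recovered from the RPM values called 31 higher and 431 lower. No site was called without replicate 1 or without replicate 2, and 89 higher and 385 lower were called without replicate 3.

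The largest ratios were all over genes at 0. The site in Gm26573 was at least 719-fold higher than that gene, taking 3 reads over the libraries as the floor for 0, and the site in 9430091E24Rik at least 511-fold. The sites in Gm26533, AC141471.2, Pkd2l2 and Gm15559 were at least 393-fold, 328-fold, 253-fold and 244-fold higher. The Pkd2l2 site lay 1778 bases past the end of Fam13b on its own strand. The 9430091E24Rik and Gm26533 sites also follow genes on their own strand, as given above. Extension of those genes and separate RNAs were not told apart. The last 50 bases of the AC141471.2 site, which holds string 4, occur 2 times in the autosomes, so its reads may belong to another copy. The Gm15559 site had 21.6, 17.8 and 16.3 RPM and lay 1172 bases past the end of Pus1, a pseudouridine synthase gene.
Gm15559, chr5:110772465-110772554, minus strand: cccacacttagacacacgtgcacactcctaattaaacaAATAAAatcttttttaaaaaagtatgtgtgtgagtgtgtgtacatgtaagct
It holds an AATAAA, as do the other sites of these 6.

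The smallest ratios among called sites of at least 1 RPM were in genes with high levels. The filter on the site fixes this, since a small ratio then needs a high gene. In Apoe, which encodes an apolipoprotein, the antisense site had 1.53, 0 and 2.42 RPM, against 2038, 1778 and 2186 RPM for the gene, a log2 ratio of -11.75 ± 1.54 (SE, adjusted p = 0.00249, limma). In Tfcp2l1, a naive pluripotency transcription factor gene, the site had 1.98, 1.62 and 0 RPM, against 633, 573 and 686 RPM. In Slc3a2 the site had 0, 0 and 3.34 RPM, against 264, 262 and 240 RPM. In P4hb a site with the B2 tail had 0, 3.84 and 0.0711 RPM, against 304, 261 and 335 RPM. None of these 4 sites had reads in all 3 libraries, while each gene had reads in all of them. A library with 0 reads enters the log2 ratio at the added 0.05 RPM. The size and order of these smallest ratios therefore also rest on that added value.

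Antisense intronic sites rarely lay opposite a listed site. A listed site on the opposite strand lay within 50 bases of 233 antisense intronic sites (1.16%), with a median distance of 6583 bases. The share was 0.889% for intronic, 0.866% for intergenic and 11.3% for antisense exonic sites.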

How the data were processed

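Poly(A) sites of 3 F121-9 libraries were deposited as lists of the same sites with a value in RPM (reads scaled to the library's total), the mean RPM and the fraction of libraries with a read, as the values show, since the lists have no header. The deposited text files name mm10 and GENCODE M21 but no aligner or site caller. Whole reads were recovered from the RPM values of the authors (100.0% whole within 0.01 reads). Members and lists were chosen with earlier results of these data known.

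Genes came from GENCODE M21, with introns counted between merged exons, and bases and repeat masking from GRCm38. The control window was the 40 bases that begin 100 bases downstream. Class differences used an exact sign-flip test over libraries. Site over gene ratios used limma 3.58.1 with the library as a block, with edgeR 4.0.16 as an alternative chosen after seeing the data. In simulated data for this ratio over 7137 sites, limma recovered 99.5% of 200 sites changed by 3 on the log2 scale, with 6 false calls. The simulation used a fixed spread not taken from these sites, and equal means of site and gene elsewhere. It therefore does not show how the test performs on the real sites. Named sites were the 12 highest, the 6 genes with the most sites read in every library, the 6 largest and 4 smallest called ratios of sites of at least 1 RPM, and up to 3 sites per list. The Wilson interval covers counting error over sites only. No molecular identifiers are given.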

Additional observations from a re-analysis of the deposited data

Results flagged for a closer look

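The whole list also holds 545 antisense intronic sites off the autosomes, which entered no comparison. In replicate 2 they had 2661 reads at 361 sites and in replicate 1 they had 1772 reads at 257 sites. In replicate 3 they had 0 reads. No group had 4 or more samples, so libraries were not screened for values far from the others.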

How the results depend on the processing

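The sign-flip test over 3 libraries cannot pass 0.05, single sites varied widely, and depth limits detection of the many sites with 1 read. Alternatives on 7 class differences kept the direction except 2: AATAAA or ATTAAA at antisense intronic minus intronic sites became -5.41 points without repeat-masked sites (chosen after seeing the data), and antisense intronic minus antisense exonic became -20.9 points by share of reads. Leaving out 1 library could not change a direction shared by all 3. The causes of the 2 reversals were not tested. Without the 8 strings (also chosen after seeing the data), 3 differences held in 2 of 3 libraries: 0.68 points from intronic and 1.31 points from antisense exonic sites for the hexamers, and 0.345 points from intergenic sites for A-rich sequence. The read share was 0.547% over all reads in the RPM denominator and 0.538% without A-rich sites. The share read in every library was 4.23% with at least 2 reads in each, and 13.1 to 13.9% when 1 library was left out, since 2 libraries then suffice. The median coefficient of variation was 146% at a mean of 5 to 50 reads, 61.8% at 20 to 200 reads and 88.7 to 141% when 1 library was left out. For antisense site over overlapped gene, sites called higher and lower numbered 362 and 12175 with no filter, 116 and 110 at 2 RPM or more (fewer sites tested), 31 and 431 with edgeR, and 0 to 89 and 0 to 385 when 1 library was left out. Without the replicate block that pairs site and gene they numbered 223 and 996.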
